A study of Homo sapiens with 2 samples.

Results

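The RNA of 10 genes at the centre of epithelial-to-mesenchymal transition (EMT) was compared between A549 cells in monolayer and in spheroid culture. They are the EMT transcription factors SNAI1 (Snail), SNAI2 (Slug), TWIST1, ZEB1 and ZEB2, the genes of E-cadherin (CDH1), N-cadherin (CDH2) and vimentin (VIM), and GSK3B and BTRC, whose products mark Snail for destruction. The genes were chosen by name, and every probe set of the array annotated with one of them was taken. This gave 28 probe sets for 10 genes, of 41097 probe sets annotated with 1 gene and 19775 genes in all, and none of the 28 lists a further gene. A549 is a human lung adenocarcinoma line. Monolayer cells grew attached for 12 days in DMEM with 10% FBS. Spheroid cells were kept for 12 days in suspension, without serum, in DMEM/F12 to which N2, EGF at 20 ng/ml and, at 10 ng/ml, bFGF had been added. The way of growth, the medium, the serum and the added factors therefore differed together and cannot be told apart. There was 1 Affymetrix Human U133 plus 2.0 array for each culture, so no difference given here has a replicate check and no p-value was computed.

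In EMT, epithelial cells give up E-cadherin junctions and take on N-cadherin, vimentin filaments and motility. Snail, Slug and the ZEB proteins are zinc finger repressors that bind E-box sequences in the promoters of epithelial genes, CDH1 among them, while Twist1 is a basic helix-loop-helix factor that also binds E-boxes. Snail is short-lived: phosphorylation by GSK3β lets the F-box protein β-TrCP, encoded by BTRC, bring it to a ubiquitin ligase, and AKT blocks this step by phosphorylating GSK3β. The study followed Snail, E-cadherin, N-cadherin, vimentin and phosphorylated GSK3β as proteins on Western blots. The arrays give RNA alone, so protein level, phosphorylation and degradation are outside these values, and in bulk RNA fewer cells with a transcript cannot be told apart from less of it per cell.

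The deposited values are signal intensities on a linear scale, already scaled to the same trimmed mean on both arrays. A signal at or under the median of its array, 108 in the monolayer and 119 in the spheroids, was read as being at the floor. Ratios are spheroid over monolayer after signals below the floor were raised to it, and a ratio with 1 culture at the floor is a bound, written "at least". A gene was read from its brightest probe set. The median log2 ratio of the 13048 genes with a ratio was 0.03, with a 5th percentile of -1.06 and a 95th percentile of 1.18. For 5453 genes with several bright probe sets, the log2 ratios of the brightest pair differed with an SD of 0.50. This spread between probe sets on the same arrays is the sole internal error available, and it is technical.

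The label of an epithelial line was checked on its keratins. High signals were found for KRT8 (22924 in the monolayer and 18884 in the spheroids) and KRT18 (50068 and 39147), while EPCAM was dim (213 and 302). The other epithelial lineage markers differed in opposite directions, KRT7 being 3.75-fold lower in spheroid culture (27459 and 7323) and KRT19 4.64-fold higher (191 and 889). Of 6 measured alveolar type II markers, 1 exceeded the floor on the monolayer array and 4 did on the other, with NKX2-1 and LAMP3 at the floor in both. Of 8 fibroblast markers, read from their brightest probe sets, 6 were at the floor in both cultures, including COL1A2, PDGFRB and THY1. Among these 6, COL3A1 had a dimmer probe set that read 120.3 in monolayer, and LUM one that read 140.5 in spheroid culture, both just above the floor. The summed signal of all 8 was 1393 and 1112. Of 4 leukocyte markers, PTPRC was at the floor in both cultures with all 5 probe sets and CD3E was just above it in both (140.4 and 144). CD14 read 437 in monolayer and was at least 3.66-fold lower in spheroid culture, and LYZ had 1 probe set above the floor, in spheroid culture (172). Their summed signal was 656 and 312. The description field of both samples speaks of Huh7, a hepatoma line, and of a treatment with PGG, against their cell line field, which gives A549. The arrays were assigned by their titles, which give the medium, and the paper's methods tie each medium to monolayer or spheroid culture. Of 8 hepatoma markers, 4 exceeded the floor on the monolayer array and 6 on the other, their summed signal was 2207 and 14863, and GPC3 and TTR were at the floor in both. The sum was carried by ALB (23.4 and 4639, at least 42.9-fold higher) and APOH (919 and 8136, 8.85-fold higher), the 2 markers past 3-fold. All 6 hepatoma markers with a ratio were higher in spheroid culture. The part of all these markers in the values below was not tested. The 3′ over 5′ signal of the ACTB control probe sets, a sign of RNA integrity, was 1.55 in the monolayer and 1.99 in the spheroids, and that of GAPDH was 1.09 and 1.15. The part of this in the values below was not tested either.

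Of the 8 genes above the floor in both cultures, 0 differed by 3-fold in either direction. SNAI1 had only a bound, so a 3-fold difference is possible for it, and ZEB2 had no ratio. In comparison, 2.37% of all genes with a ratio were at least 3-fold higher in spheroid culture and 2.14% at least 3-fold lower. None of the 8 reached 2-fold either, where the shares of all genes were 6.96% and 5.58%, nor 5-fold, where they were 0.789% and 0.966%. TWIST1 passed 2-fold in the lower direction after quantile normalization (log2 ratio -1.08) and once the arrays were set to equal medians (-1.10). With no replicate and so few genes, a count of 0 beside such shares is not a result about these genes. SNAI1 was above the floor in monolayer alone, and ZEB2 was above it in neither culture. The largest differences among them were lower signals in spheroid culture, for TWIST1, CDH1 and SNAI1. On their brightest probe sets CDH2 was 1.07-fold higher and VIM 1.10-fold lower. CDH2 turned lower once the arrays were set to equal medians, and VIM higher in the geometric mean over probe sets. Of the 9 genes with a ratio, 6 were lower and 3 higher in spheroid culture, while 47.9% of all genes with a ratio were lower and 52.1% higher. Their median log2 ratio was -0.11, beside 0.03 for all genes.

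**Figure D1:**
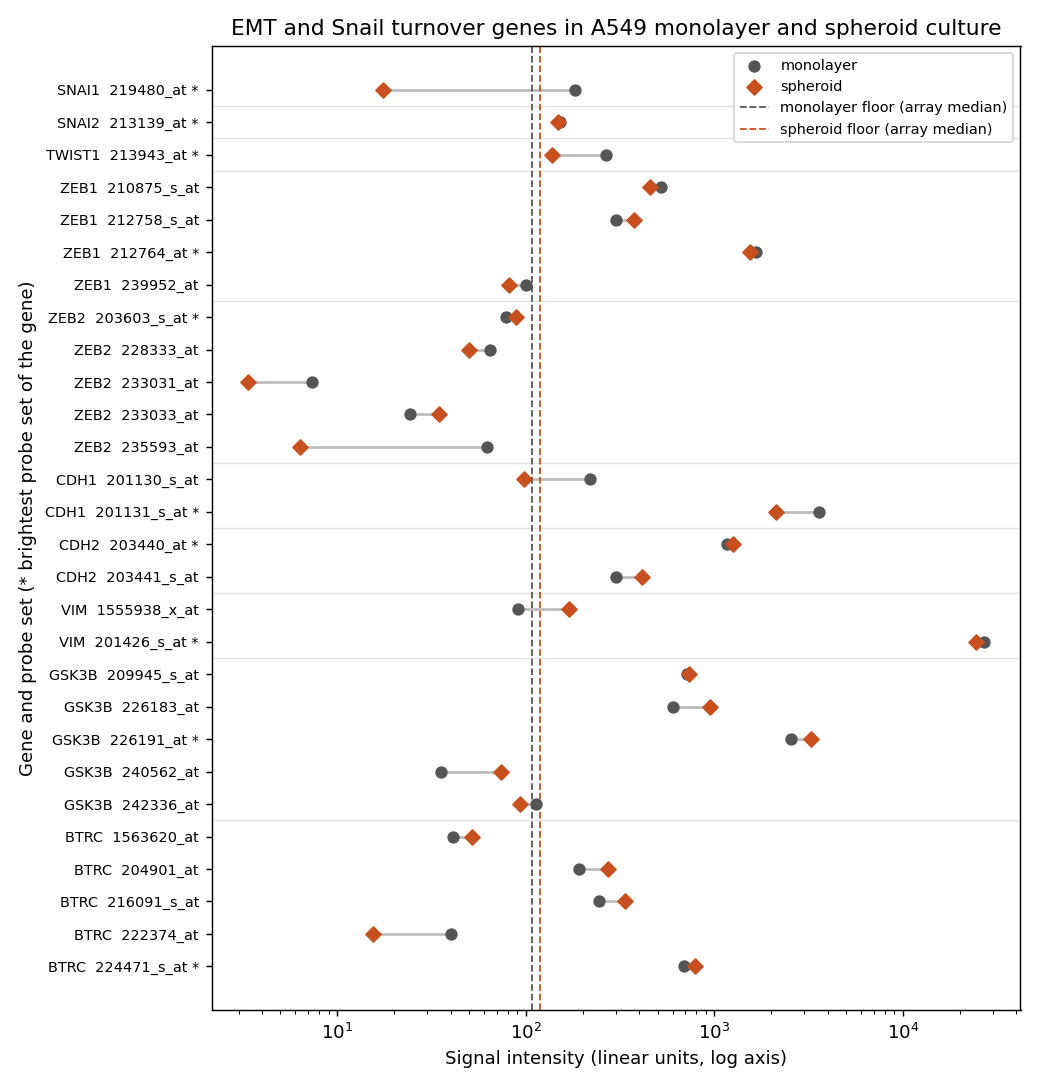
Signal of each of the 28 probe sets in monolayer (grey circles) and spheroid culture (orange diamonds), on a log axis, with the floor of each array as a dashed line and the brightest probe set of each gene marked by an asterisk. SNAI1 lies above the floor in monolayer (182) and below it in spheroid culture (17.6), all 5 ZEB2 probe sets lie under them, and the main VIM probe set lies near the right edge in both cultures.

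SNAI1, the gene of Snail, read 182 on the monolayer array and 17.6 on the spheroid array on its only probe set. The monolayer array thus gave the higher signal, and the spheroid signal lay under the floor. Against that floor the gene was at least 1.53-fold lower in spheroid culture (log2 ratio -0.61). Without a floor the same signals gave a log2 ratio of -3.38, a 10.4-fold difference that rests on a signal under the floor. Without a floor SNAI1 also passed the 3-fold limit, as did 5.13% of all 19775 genes in the lower and 6.63% in the higher direction. Its transcript was close to the floor even in monolayer, so the size of the difference is not settled by these arrays. With 1 probe set and 1 array per culture, its direction has no check either.

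SNAI2, the gene of the related repressor Slug, read 152 on the monolayer array and 148 on the spheroid array, again on a single probe set. Both lay just above the floor, and their log2 ratio was -0.04. TWIST1 read 267 on the monolayer array and 138 on the spheroid array, 1.94-fold lower (log2 ratio -0.96). SNAI1 apart, whose ratio is a bound, this was the largest difference among the brightest probe sets, and 6.12% of all genes with a ratio stood lower than TWIST1. The spheroid signal of TWIST1 was also just above the floor, and with the floor raised to the 75th percentile of each array SNAI1, SNAI2 and TWIST1 were at the floor in both cultures.

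ZEB1, a zinc finger and homeodomain repressor, was well above the floor in both cultures. Its brightest probe set read 1668 in the monolayer and 1541 in the spheroids, a log2 ratio of -0.11. The other probe sets disagreed in direction. One read 522 and 456 (log2 ratio -0.20), another 301 and 375 (log2 ratio 0.32), and the remaining one, 101 and 81.0, was at the floor in both. These ratios differ from each other by about the spread between probe sets of a gene, so no direction can be read for ZEB1. ZEB2, a close relative that represses the same kind of promoter, was at the floor with all 5 probe sets in both cultures. Its brightest probe set read 78.9 in the monolayer and 88.8 in the spheroids, and the dimmest 7.39 and 3.38. No ratio is given for it.

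**Figure D2:**
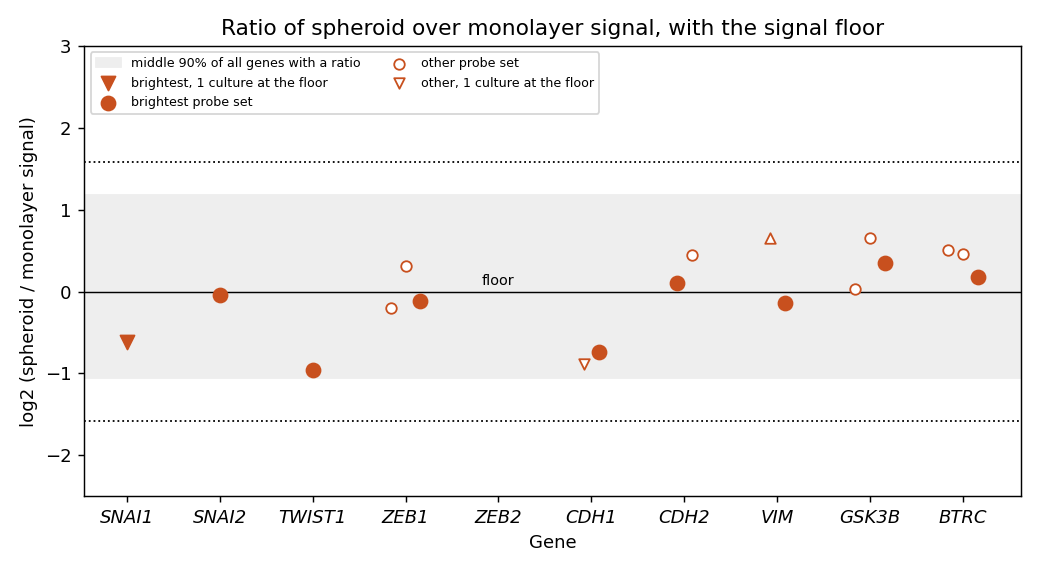
Log2 ratio (spheroid over monolayer) of each probe set with a ratio, by gene, filled for the brightest probe set and drawn as a triangle where 1 culture was at the floor, with the middle 90% of all genes (-1.06 to 1.18) in grey and dotted lines at 3-fold (ZEB2, marked floor, has no ratio). CDH1 lies below 0 and CDH2 above 0 with both probe sets, although CDH2 (-0.04) lay below 0 when each array was divided by its median, and VIM lies on both sides of 0.

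The ratios of the 2 cadherins differed, each read from 1 array per culture. CDH1, which encodes the adherens junction protein E-cadherin, read 3569 on the monolayer array and 2135 on the spheroid array, 1.67-fold lower. Its second probe set read 220.4 in the monolayer and 97.9 in the spheroids, under the floor, and was at least 1.85-fold lower. Both probe sets of CDH1 were therefore lower in spheroid culture, at log2 ratios of -0.74 and -0.89, and 9.66% of all genes with a ratio stood lower than CDH1. CDH2, which encodes N-cadherin, the cadherin of neural and mesenchymal cells, read 1172 on the monolayer array and 1257 on the spheroid array. Its second probe set read 302 and 412. Both were higher in spheroid culture, 1.07-fold and 1.37-fold, with log2 ratios of 0.10 and 0.45 that lie inside the spread between probe sets. The log2 ratio of CDH2 exceeded that of CDH1 by 0.84 on the brightest probe sets, or 1.79-fold, and by 1.19 with the dimmer CDH2 probe set in its place. Against the dimmer CDH1 probe set, whose spheroid signal was under the floor, the differences were at least 0.99 and at least 1.34. The larger part of this difference came from the lower CDH1 signal. On the brightest probe sets, which were above the floor in both cultures, this difference does not depend on dividing either array by a constant. For scale, the 25th and 75th percentiles of the log2 ratios of all genes with a ratio were -0.34 and 0.40. Without replicates, an unequal change of the 2 cadherins could not be tested.

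VIM, the gene of the mesenchymal intermediate filament protein vimentin, read 26837 on the monolayer array and 24299 on the spheroid array on its main probe set. The signal was high in both cultures, and the log2 ratio was -0.14. Its other probe set read 91.2 in monolayer, under the floor, and 171 in spheroid culture, at least 1.58-fold higher. By the _s_at and _x_at endings of their names, both VIM probe sets, like both of CDH1, may also bind other transcripts. The probe sets of VIM thus pointed in opposite directions, and their geometric mean gave a log2 ratio of 0.38. The bright probe set gave a log2 ratio between -0.28 and -0.05 under the scalings tried.

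GSK3B and BTRC, which act in Snail degradation, had slightly higher signals in spheroid culture. GSK3B encodes the kinase GSK3β and read 2543 in the monolayer and 3239 in the spheroids on its brightest probe set, 1.27-fold higher. Another probe set read 600.4 and 948 (log2 ratio 0.66), and another 713 and 731 (log2 ratio 0.04). The remaining ones read 35.7 and 73.7, at the floor in both cultures, and 114 and 92.7, too close to the floor for a ratio. All 3 probe sets of GSK3B with a ratio were higher in spheroid culture, by amounts from nearly nothing to 1.58-fold. BTRC encodes β-TrCP, the substrate receptor of the ligase, and read 694 in the monolayer and 787 in the spheroids, 1.13-fold higher. Its other bright probe sets read 191 and 272 (log2 ratio 0.51) and 245 and 337 (log2 ratio 0.46). All 3 probe sets of BTRC with a ratio were higher, and the 2 others, 41.0 and 51.6 in one case and 40.4 and 15.4 in the other, were at the floor in both cultures. Of all genes with a ratio, 72.1% stood lower than GSK3B and 60.7% lower than BTRC, so both lay well inside the bulk of the array.

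The other genes of Snail turnover were read for comparison. Of 22 measured genes of kinases, ubiquitin ligase subunits, phosphatases, deubiquitinases and other proteins of this kind, 22 had a ratio. Of these, 1 passed 3-fold in the lower direction and none in the higher, beside 2.14% and 2.37% of all genes with a ratio. By any amount 15 were lower and 7 higher, beside 47.9% and 52.1% of all genes. Their median log2 ratio was -0.19, and no test was run on the list. The list joins genes that act in Snail degradation with genes that protect Snail from it. Its counts and median therefore give no direction for degradation. FBXW11, the paralogue of BTRC, read 2111 in the monolayer and 2212 in the spheroids, and GSK3A, the paralogue of GSK3B, 772 and 1006. The ligase core genes SKP1 (34808 and 33783), CUL1 (2089 and 1534) and RBX1 (4251 and 3732) were lower by 1.03-fold, 1.36-fold and 1.14-fold. The gene past the limit was USP1, a deubiquitinase, at 4413 and 1327, 3.33-fold lower with both probe sets lower. AXIN1, a scaffold that holds GSK3β, read 377 and 137, and LATS2, a Hippo kinase that acts on Snail, 1228 and 494. FAK and AKT, kinases that the study assayed, lie upstream of GSK3β. PTK2, the gene of FAK, read 5213 and 4289, AKT1 1963 and 1743, and AKT2 1508 and 1460. In a list of these, 2 genes of PI3-kinase and the kinase gene PDPK1, 0 of 6 differed by 3-fold on their brightest probe sets. With so few genes, that count beside the shares of all genes given above is not a result about them. Their median log2 ratio was 0.06, or -0.08 once the arrays were set to equal medians. PDPK1 was added from general knowledge, and the study's supplementary gene table also lists it as higher in spheroid culture. One of its dimmer probe sets read 15.7 in monolayer and 93.7 in spheroid culture, under the floor in both, and had no ratio here.

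Snail and ZEB proteins recruit corepressors. Of 15 such genes, 12 had lower signals in spheroid culture, beside 47.9% of all genes, and 2 passed 3-fold in the lower direction and none in the higher, beside 2.14% and 2.37%. Their median log2 ratio was -0.36, and no test was run on the list. For comparison, 10 genes in common use as references of RNA level had a median log2 ratio of -0.21, with 7 lower and 3 higher. EZH2, the methyltransferase of the Polycomb repressive complex, read 1257 in the monolayer and 262 in the spheroids, 4.79-fold lower on its only probe set. LOXL2, a lysyl oxidase that also binds Snail, read 7192 and 2190, 3.28-fold lower, and both of its probe sets with a ratio were lower. HDAC1 (4592 and 4184) and CTBP2 (6430 and 7367) lay close to equal. Of 12 measured genes of catenins and other proteins tied to cadherin junctions, 10 had a ratio, with a median log2 ratio of -0.10. None of these ratios passed 3-fold, beside 2.14% of all genes with a ratio in the lower and 2.37% in the higher direction. A count from so few genes is not a result about them. CTNND2 and ARVCF had only bounds, so whether they pass 3-fold is not settled. CTNNA2 and CTNNA3 lay under the floor on either array and had no ratio. CTNNB1, the gene of β-catenin, read 2288 and 2095, and JUP, the gene of plakoglobin, 1734 and 3412.

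Epithelial and mesenchymal genes that EMT is known to lower or raise lay on both sides of equality within either list. Of 31 measured epithelial genes, 2 passed 3-fold in the higher direction and 1 in the lower, 19 had smaller ratios and 9 reached the floor on neither array, and the median log2 ratio was 0.36, or -0.07 if the 75th percentile was the floor. The 3 past the limit were MUC1, a membrane mucin (375 and 1773), the keratin KRT19 (191 and 889), and KRT7, lower at 27459 and 7323. Of all genes with a ratio, 2.37% were past 3-fold in the higher and 2.14% in the lower direction. Of 29 mesenchymal genes, 1 passed 3-fold in the lower direction and none in the higher, 21 had smaller ratios and 7 were at the floor on both arrays by their brightest probe sets (COL3A1 among them), and the median log2 ratio was 0.12, with 11 higher and 11 lower, or -0.10 with the geometric mean of probe sets. FN1, the gene of fibronectin, read 13835 and 41296 on its brightest probe set, 2.98-fold higher and so just inside the limit, while 3 other bright probe sets of FN1 passed it at 3.41-fold, 3.53-fold and 4.04-fold. A probe set of VCAN, the gene of versican, also passed it at 3.12-fold, although the brightest one read 2.69-fold. S100A4 read 13745 and 35405, and CD44 read 18391 and 31734. In the other direction, TGFBI, also bright, read 25340 and 8949, 2.83-fold lower on its only probe set. CDH11, a mesenchymal cadherin, was at least 3.05-fold lower on its brightest probe set, with the spheroid signal at the floor. Its other probe sets were also lower, with bounds of only 1.71-fold, 1.34-fold and 1.05-fold. Of 13 other EMT transcription factors measured, 5 reached the floor on neither array and SOX9 alone passed the limit, 5.08-fold higher. Of the 8 with a ratio, 5 were higher and 3 lower, with a median log2 ratio of 0.27. SOX4 (6172 and 7967) and FOXQ1 (2725 and 4141) were among the higher ones, and TWIST2 and TCF3 among the lower ones. TWIST2, the paralogue of TWIST1, read 960 and 520.3, and TCF3, which encodes the E proteins E12 and E47, read 1185 and 713 with 7 of its 9 probe sets with a ratio lower.

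Snail and ZEB proteins recognise the E-box letters CACCTG, which read CAGGTG on the other strand. These were searched in windows of 300 bases, from 250 before to 50 after a RefSeq transcription start (GRCh38.p14). Of 35116 windows, 20.6% held the motif, and 24.1% of 27305 genes held it in at least 1 window. Windows were at hand for ZEB1, ZEB2, CDH2, VIM and GSK3B, and were not used here for SNAI1, SNAI2, TWIST1, CDH1 and BTRC. No window of ZEB2, CDH2, VIM or GSK3B held the motif, and 2 of 7 windows of ZEB1 did. Among the epithelial genes, 12 of 16 with a window held it in at least 1, among the mesenchymal genes 4 of 19. These shares describe letters, not binding, and no test was run on them. The ZEB1 window with 3 motifs (chr10:31318966-31319265, plus strand) and that of CRB3, an apical polarity gene with 5 motifs (chr19:6464021-6464320, plus strand), are shown as examples, with the E-box letters in capitals. Other windows also held several, among them 1 window of another epithelial gene with 5, and CRB3 was picked after its value was seen.
ZEB1: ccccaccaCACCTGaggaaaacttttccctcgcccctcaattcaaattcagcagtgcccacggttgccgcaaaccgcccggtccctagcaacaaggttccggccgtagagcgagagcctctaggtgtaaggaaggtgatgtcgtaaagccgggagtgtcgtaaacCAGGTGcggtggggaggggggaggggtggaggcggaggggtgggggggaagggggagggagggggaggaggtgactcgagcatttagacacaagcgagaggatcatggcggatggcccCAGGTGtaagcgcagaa
CRB3: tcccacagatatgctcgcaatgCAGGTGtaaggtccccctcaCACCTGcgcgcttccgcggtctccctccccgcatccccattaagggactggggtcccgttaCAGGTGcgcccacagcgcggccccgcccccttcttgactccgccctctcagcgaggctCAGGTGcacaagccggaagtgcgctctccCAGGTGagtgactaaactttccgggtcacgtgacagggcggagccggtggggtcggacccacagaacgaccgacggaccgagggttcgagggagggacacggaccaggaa
Counted from the start, with bases before it negative, the motifs of ZEB1 began at -242, -85 and 34, and those of CRB3 at -228, -208, -147, -89 and -60. ZEB1 differed little between the cultures, as given above. CRB3 read 114 in the monolayer and 229.9 in the spheroids, 2.01-fold higher on its only probe set and near the floor in monolayer.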

How the data were processed

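RNA of 1 monolayer and 1 spheroid culture of A549 cells was measured with 1 Affymetrix Human U133 plus 2.0 array each. The authors deposited signal intensities on a linear scale, made with MAS5 and GCOS as listed in the submitters' processing notes (versions not given in the sources used here). GeneSpring GX is given in the methods for later steps. Both arrays had a trimmed mean of 500.1 (2% off either end), so the deposited values were used without further scaling. The floor was the array's median, leaving out 62 control probe sets, and no ratio was given where neither signal, or a signal not above the other array's floor, allowed one (6546 and 181 of 19775 genes). Genes were named from the platform annotation, and 41043 of 41097 probe sets received a current symbol through their Entrez identifier.

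Named are all 10 genes, from 15 comparison lists up to 4 genes past 3-fold in each direction and up to 3 bright ones within it, any gene of Snail turnover and of the cadherin partners, marker genes, and FN1, PTK2, AKT1 and AKT2. TWIST2, TCF3, CRB3, VCAN, TGFBI and DES fall outside this rule and were picked after their values were seen. The genes and lists were chosen with earlier results of these data known. The steps were tested on simulated data with large planted changes in genes above the floor on both arrays. That test does not bear on small differences or on signals near the floor. Python 3.11.15, numpy 2.4.6, pandas 2.3.3 and matplotlib 3.10.9 were used. With 1 array per culture there is no replicate, and the precision of each value is limited by that number.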

Additional observations from a re-analysis of the deposited data

How the results depend on the processing

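Results were recomputed without a floor, with floors at the 25th and 75th percentiles, after quantile normalization, with each array divided by its median, from the geometric mean over the probe sets of each gene, after removal of _s_at and _x_at probe sets, and at 2-fold and 5-fold. Over all genes, the 309 at least 3-fold higher and 279 lower became 1312 and 1014 without a floor, 558 and 421 with the 25th percentile, and 109 and 150 with the 75th. The count of the 10 genes at least 3-fold lower went from 0 to 1 with no floor and to 1 with the floor at the 25th percentile, in both cases through SNAI1, whose log2 ratio was -3.38 and a bound of -2.20. The count at least 3-fold higher was 0 under every alternative. TWIST1 passed 2-fold after quantile normalization (-1.08) and with arrays at equal medians (-1.10), but not otherwise. TWIST1, CDH1, ZEB1 and SNAI2 were lower and GSK3B and BTRC higher wherever they had a ratio. CDH2 was lower (-0.04) with each array divided by its median, which shifted the median of all genes from 0.03 to -0.10, and VIM was higher (0.38) with the geometric mean. With no _s_at and _x_at probe sets CDH1 and VIM had none left. Among marker lists, the median log2 ratio of epithelial lineage markers was 1.05 without those probe sets and that of hepatoma markers 0.62. With the 75th percentile as floor the median of hepatoma markers was 3.15, that of fibroblast markers 0.060 with the geometric mean, and that of leukocyte markers -0.39 with no floor. The cause of these shifts was not tested. The median of the 10 genes stayed between -0.25 and -0.01. No paired analysis was possible because each culture has 1 array.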

Other observations

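Beside vimentin, 12 other intermediate filament genes were measured, of which 5 were at the floor in both cultures by their brightest probe sets. One of the 5, DES, had a dimmer probe set that read 130.4 in spheroid culture, just above the floor. LMNB1, the gene of lamin B1, read 637 in monolayer and 139 in spheroid culture, 4.59-fold lower on its only probe set. LMNA, the gene of lamins A and C, read 3092 and 3354. NEFL, a neurofilament gene, read 473 and 1450.2, 3.07-fold higher with both probe sets that had a ratio higher.

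Among 16 genes of the TGF-β pathway, a known inducer of Snail, 1 was at least 3-fold lower and 0 at least 3-fold higher. The shares of all genes with a ratio were 2.14% and 2.37%. The median log2 ratio of the list was -0.25, and between -0.39 and -0.02 over the settings tried. The list joins ligands, receptors and SMADs with inhibitors of the pathway, so its median gives no direction for the input to Snail. SMAD3, a receptor-activated transcription factor of this pathway, read 3238 in monolayer and 845 in spheroid culture, 3.83-fold lower, and all 4 of its probe sets were lower. TGFBR2, the type II receptor, read 4982 and 7000 (log2 ratio 0.49), but a dimmer probe set read 232 and 165 (log2 ratio -0.49). SMAD2 read 5888 and 3782. With 1 array per culture, none of these differences has a replicate check.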
